A study of Sparus aurata with 9 samples.

Results

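Cells given back amino acids (AA) were compared directly with cells given insulin-like growth factor 1 without amino acids (IGF1), over every microRNA (miRNA) entry of the deposited table. The comparison was chosen by sample label alone and used 6 of the 9 libraries, 3 AA and 3 IGF1, and all 862 entries, 567 named after miRBase and 295 candidates predicted by the pipeline, with names that start with PC. Samples were primary cultures of myoblasts taken from fast skeletal muscle of Sparus aurata, the gilthead sea bream. Cultures reached day 8 before amino acids were withdrawn. AA cells spent 12 h deprived and then 24 h with amino acids, in DMEM as the study describes it. IGF1 cells spent 12 h deprived and then 24 h with Igf-1 in a medium of Earle's salts, vitamins and glucose that held no amino acids, with bovine serum albumin as carrier. The remaining 3 libraries, of cells deprived for the whole 36 h (CTR), entered no test and are given beside some named miRNAs as the level with neither supplement. The media of AA and IGF1 thus differed in more than amino acids and the growth factor, and these components cannot be told apart. Per the study's methods the work rested on 3 independent cultures. No label links a library to its culture, and p-values therefore measure the spread among the libraries.

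Amino acids and Igf-1 both stimulate protein synthesis in muscle, amino acids by activating the kinase complex mTORC1 and Igf-1 through its receptor and the PI3K and Akt kinases, which also act on mTORC1. miRNAs are short RNAs that guide Argonaute proteins to messenger RNAs and lower their output, mainly by pairing of the seed, bases 2 to 8, with the target. Each miRNA hairpin gives a 5p and a 3p arm, of which usually one, the guide, accumulates in Argonaute and the other, the passenger strand, is degraded. Below, the arm with more normalized reads here, among entries of the same miRNA number and letter, is called the major arm and its partner the minor arm. Skeletal muscle is known for a small set of muscle miRNAs, miR-1, miR-133, miR-206 and miR-499, which increase as myoblasts stop dividing and fuse into myotubes.

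The sequences below, as deposited and written as DNA from 5′ to 3′ with the seed in capitals, are the 7 entries that differed between AA and IGF1. Their positions in the genome were not analysed here.
miR-181b-3p: cTCACTGAacgatgaatgcaa
PC-3p-5483: cTCACTGAacgatgaatgcaaa
mir-128-2-p5: gGGGGCCGttacactgtcagaga
miR-133a-2-5p: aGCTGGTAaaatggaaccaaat
miR-145-3p: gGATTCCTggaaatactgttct
miR-1: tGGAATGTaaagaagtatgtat
miR-10926: aTCCCAGCggtgcctcca

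PC-3p-5483 is miR-181b-3p with 1 more A at its 3′ end, so these 7 entries represent 6 distinct miRNAs. The next set is shown because it ties the muscle miRNAs together. miR-1 and miR-206 share their seed, and their minor arms, miR-1-5p and miR-206-5p, differ from each other in the seed.
miR-206: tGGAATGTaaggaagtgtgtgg
miR-206-5p: aCATGCTTccttatatccccata
miR-1-5p: aCATACTTctttatgtacccat
miR-133a/b: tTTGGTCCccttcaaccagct
miR-133b-5p: gCTGGTCAaacggaaccaagtc

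Depth differed between the groups. Judged from the smallest steps between low values, AA libraries held about 11214788, 10423122 and 9766620 reads and IGF1 libraries 9534840, 8759459 and 7241678, so every AA library was deeper than every IGF1 library. These totals run over all entries and count the 30 sequences with several names more than once. Counted once per sequence, entries held between 95.4% and 96.2% of the total in the 6 libraries. Percentages of normalized reads below are over the full totals. AA libraries listed between 112 and 119 entries at 0 and IGF1 libraries between 134 and 159. The limit that a count of 0 allows, 3 reads, was between 2.32 and 3.48 normalized reads per library, for counting error only. On the log2 scale, libraries of different groups correlated across tested entries with Pearson's r between 0.970 and 0.989, and libraries of the same group between 0.977 and 0.987. The part of depth in the differences below was not tested.

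Few entries passed the test between amino acids and Igf-1, among them miR-1, miR-133a-2-5p, and the passenger strands of miR-181b, miR-128 and miR-145, which were higher with amino acids. Of 576 entries tested, 7 passed at an adjusted p under 0.05 (1.22%), 6 higher in AA (1.04%) and 1 lower (0.174%), by limma with Benjamini-Hochberg adjustment. Unadjusted p-values were under 0.05 in 67 entries (11.6%), 45 higher in AA (7.81%) and 22 lower (3.82%). The 3 AA and the 3 IGF1 libraries did not overlap in 89 entries (15.5%), of which 56 were higher in AA (9.72%) and 33 lower (5.73%). The median log2 difference over all tested entries was -0.0015. Of the 7 entries, 4 were minor arms, 1 a major arm, 1 a predicted candidate and 1, miR-10926, had no partner arm in the table. Without AA replicate 2, AA replicate 3, IGF1 replicate 1 or IGF1 replicate 2, 1 entry passed, and without IGF1 replicate 3, 2 passed. miR-181b-3p passed in each of these fits, and mir-128-2-p5 was the other call without IGF1 replicate 3. Without AA replicate 1, 9 passed.

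**Figure D1:**
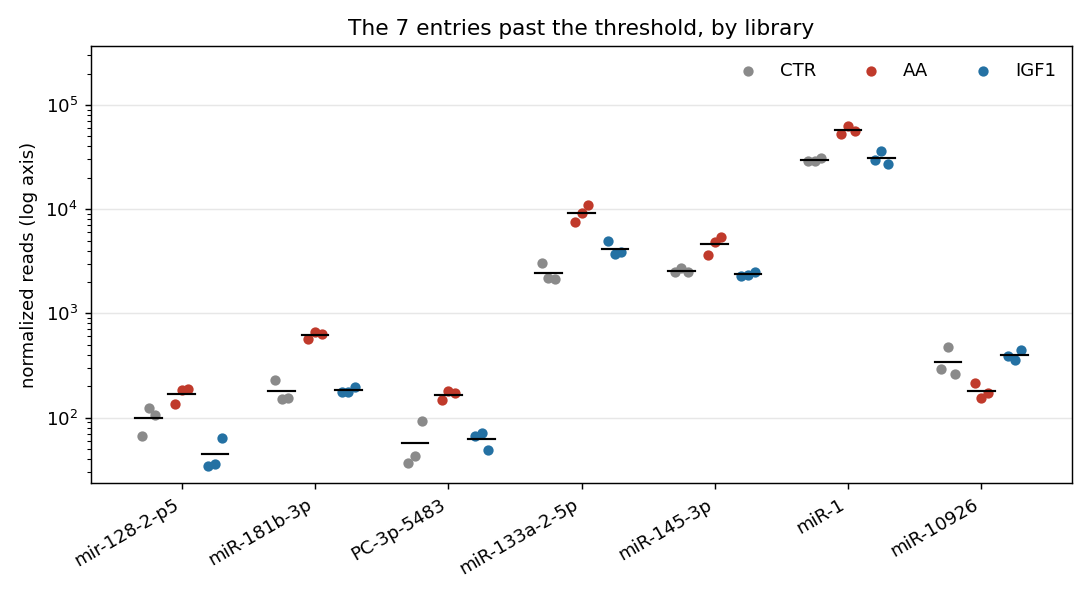
Normalized reads (log axis) of the 7 entries past the threshold in each CTR, AA and IGF1 library. Points are libraries and bars are means of 3. In each entry the 3 AA libraries lie on 1 side of the 3 IGF1 libraries, above them in 6 entries and below them in miR-10926.

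**Figure D2:**
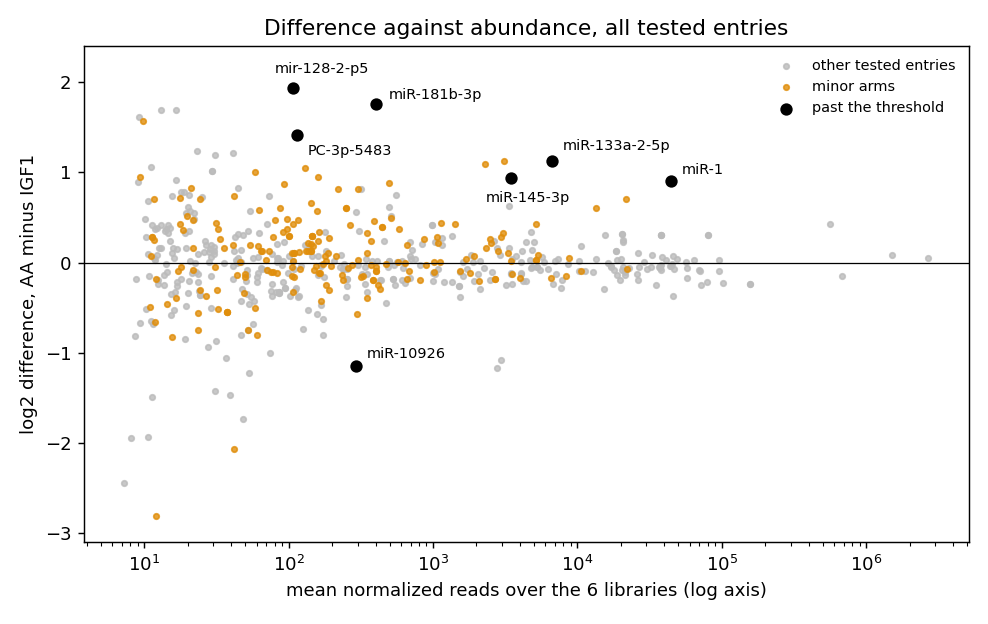
Log2 difference between AA and IGF1 against mean normalized reads over the 6 libraries (log axis), for 576 tested entries. Minor arms are orange and the 7 entries past the threshold black. Most abundant entries lie near 0, with miR-1 and miR-133a-2-5p above them.

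The largest difference in relation to its error was that of miR-181b-3p, the minor arm of miR-181b. The miR-181 family is best known from lymphocytes, and in mammalian myoblasts it lowers the homeobox protein Hox-A11. miR-181b-3p had 570.1, 662 and 633 normalized reads in AA and 177, 177 and 195 in IGF1. The groups were far apart, and IGF1 lay at the CTR level of 178 ± 44.4 (SD, n = 3). The log2 difference was 1.76 (SE 0.14, adjusted p = 0.0012), a 3.38-fold difference, and passed under all 18 alternatives run, with adjusted p between 0.000448 and 0.0217. The candidate PC-3p-5483, the same sequence with an added A, had 165 ± 17.2 normalized reads in AA and 62.1 ± 11.7 in IGF1, a difference of 1.41 (SE 0.20, adjusted p = 0.0272). miR-181b-3-3p, which is miR-181b-3p with 1 more G at the 5′ end and therefore another seed, had 105 ± 17.7 and 69.5 ± 14.5 normalized reads, a difference of 0.60 (SE 0.23, adjusted p = 0.366). The other entry named miR-181b-3p, with a different sequence behind the shared seed, differed by 0.29 (SE 0.22, adjusted p = 0.687). The major arm, miR-181b, a sequence also named miR-181d, had 22700 ± 2767 normalized reads in AA and 18214 ± 546 in IGF1. Its difference of 0.31 (SE 0.12, adjusted p = 0.366) did not pass. A form of that arm that starts 1 base later and ends later, miR-181b-5p, had 55.2 ± 11.6 and 26.7 ± 15.1 normalized reads, a difference of 1.21 (SE 0.50, adjusted p = 0.394). Across the miR-181 family, 11 of 13 tested sequences had values above 0, with a median of 0.29, and 1 passed. Of all 547 tested sequences, 272 had values above 0 and 7 passed.

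mir-128-2-p5 is the passenger strand of miR-128, a miRNA of brain and muscle that in mice targets the insulin receptor substrate Irs1. It had 135, 182 and 187 normalized reads in AA against 34.2, 35.9 and 63.8 in IGF1. All AA libraries were above the CTR libraries, at 66.4, 123 and 105, and all IGF1 libraries below them. The difference between AA and IGF1 was 1.93 (SE 0.28, adjusted p = 0.0272). The strand from the other hairpin, mir-128-1-p5, which shares the seed GGGGCCG, had 120.3 ± 23.4 normalized reads in AA and 65.9 ± 14.9 in IGF1. These groups did not overlap either, and the difference was 0.87 (SE 0.24, adjusted p = 0.175). For this strand the CTR libraries, at 117 ± 24.6, lay above the IGF1 libraries and overlapped AA. The major arm miR-128-3p, which both hairpins share, had 11346 ± 2407 and 9930 ± 1745 normalized reads and differed by 0.18 (SE 0.20, adjusted p = 0.821). The 3 further entries of the major arm, at 0.34, 0.02 and -0.53, did not pass.

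miR-145 is typical of smooth muscle and fibroblasts. Its passenger strand, miR-145-3p, had 3629, 4809 and 5366 normalized reads in AA and 2283, 2350 and 2496 in IGF1. IGF1 libraries were close to the CTR mean of 2575 ± 151. The difference was 0.94 (SE 0.16, adjusted p = 0.0459), and of the 7 calls this one lay nearest to the threshold. It passed under 8 of 18 alternatives. The major arm had 13737 ± 3527 normalized reads in AA and 16886 ± 4070 in IGF1, with overlapping groups and a difference of -0.30 (SE 0.24, adjusted p = 0.703). An entry of the minor arm that starts 2 bases later had 22.3 normalized reads in AA and 21.3 in IGF1, a difference of 0.16 (SE 0.41, adjusted p = 0.949).

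All 13 tested sequences of the muscle miRNAs had higher values in AA than in IGF1, against 272 of all 547 tested sequences (49.8% of tested entries). The 13 are arms and length variants of miR-1, miR-133, miR-206 and miR-499 and do not stand for 13 separate miRNAs. Their median log2 difference was 0.89, where that of all tested sequences was -0.0019, and groups did not overlap, with AA higher, in 11 of 13, against 52 of 547 tested sequences (9.51%). Values of all 13 stayed above 0 under the 3 other scalings and with any of the 6 libraries left out, with medians between 0.81 and 0.91. Only miR-1 and miR-133a-2-5p passed the test. Muscle miRNAs, counted once per sequence, held between 8.32% and 9.66% of normalized reads in AA, between 6.01% and 7.54% in IGF1 and between 5.91% and 8.15% in CTR. In bulk RNA from a culture, more cells of the muscle lineage and more of these miRNAs per cell cannot be told apart.

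miR-1, which targets the histone deacetylase HDAC4 in mammalian muscle cells and thereby favours differentiation, had 52799, 63283 and 56657 normalized reads in AA. In IGF1 it had 29569, 36107 and 27349, near the CTR mean of 29547 ± 1032. No IGF1 library came near the lowest AA library. The difference was 0.90 (SE 0.14, adjusted p = 0.0272), a 1.86-fold difference. miR-1 passed under 11 of 18 alternatives. Among those where it did not pass were quantile normalization and the fit without the intensity trend. Its minor arm, miR-1-5p, was at 129.8, 188 and 209 in AA and at 67.6, 79.0 and 106 in IGF1. The CTR libraries, between 19.3 and 41.0, lay below both groups. The difference of 1.05 (SE 0.25) did not pass (adjusted p = 0.102).

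miR-206, found in skeletal muscle and its satellite cells, was the fourth most abundant entry, with 571305, 656654 and 698837 normalized reads in AA and 405254, 518724 and 511884 in IGF1. The groups did not overlap, but they were close, and the difference of 0.43 (SE 0.13, adjusted p = 0.267) did not pass. After quantile normalization it was 0.11. The CTR libraries of miR-206, between 414701 and 608549, overlapped both groups. The minor arm miR-206-5p was at 2432, 3198 and 3684 in AA against 1143, 1646 and 1568 in IGF1. That difference of 1.09 (SE 0.21, adjusted p = 0.0624) lay just outside the threshold. The seed GGAATGT is shared by 6 tested entries of miR-1 and miR-206, with differences from 0.43 to 0.90. The 5 that did not pass were miR-206 itself, 2 longer forms of miR-206 at 0.56 and 0.74 and 2 longer forms of miR-1 at 0.62 and 0.89.

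miR-133 represses serum response factor in mice and is made from the same primary transcripts as miR-1 and miR-206. Its minor arms had larger log2 differences than its major arm, but no ratio of minor to major arm passed the test for miR-133. miR-133a-2-5p had 7450, 9171 and 10939 normalized reads in AA and 4907, 3749 and 3918 in IGF1. All IGF1 libraries were below the AA libraries and above the CTR libraries, which lay between 2152 and 3056. The difference was 1.12 (SE 0.18, adjusted p = 0.0272). miR-133b-5p had 3759, 3086 and 5632 in AA and 2805, 2470 and 914 in IGF1, where replicate 3 stood apart. The groups did not overlap, and the difference of 1.12 (SE 0.43, adjusted p = 0.366) did not pass. The major arms of miR-133a and miR-133b are 1 sequence in the table and cannot be separated. That sequence had 77497, 96256 and 89458 normalized reads in AA and 55429, 76549 and 83062 in IGF1. Groups overlapped, and the difference was 0.31 (SE 0.17, 95% interval from -0.09 to 0.71, adjusted p = 0.597).

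miR-499 lies in a myosin heavy chain gene of slow muscle in mammals. Its major arm had 3531, 4796 and 3738 normalized reads in AA and 2258, 2223 and 3454 in IGF1, where replicate 3 was near the lowest AA library. The difference was 0.62 (SE 0.21, adjusted p = 0.309). The minor arm miR-499b-3p had 207 ± 46.6 in AA and 111 ± 41.3 in IGF1, a difference of 0.94 (SE 0.32, adjusted p = 0.309).

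**Figure D3:**
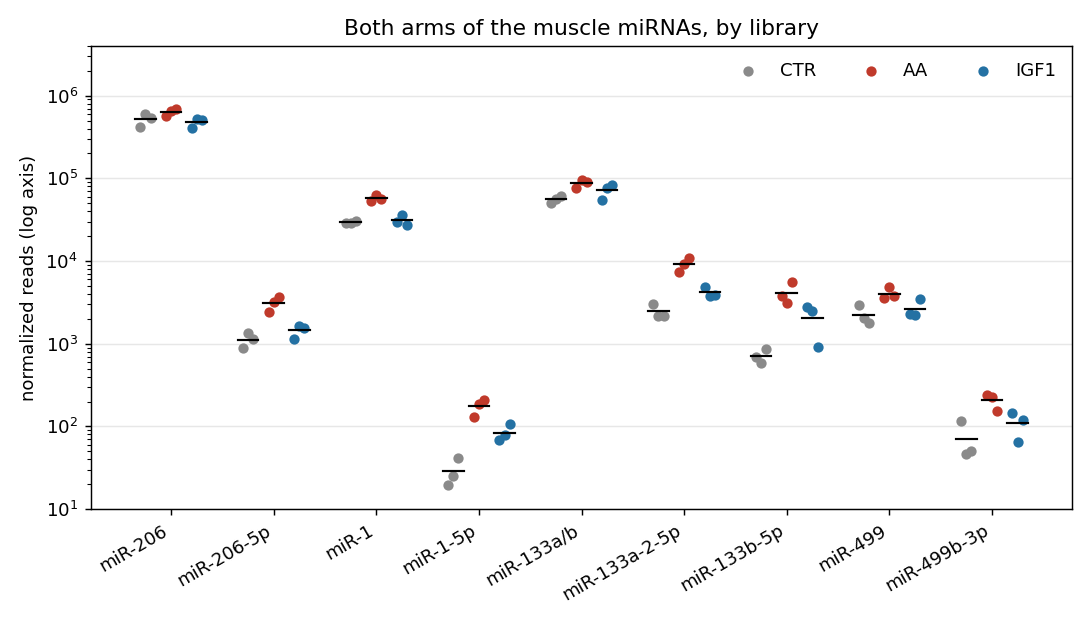
Normalized reads (log axis) of both arms of the muscle miRNAs in each CTR, AA and IGF1 library. Points are libraries and bars are means of 3, and miR-133a/b is the shared sequence of both major arms. The AA points lie above the IGF1 points for each miRNA except miR-133a/b, where the groups overlap.

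Minor arms as a class leaned towards AA. Groups did not overlap with AA higher in 35 of 180 tested minor arms (19.4%), and in 12 of 229 major arms (5.24%), where the share over all 547 tested sequences was 9.51%. AA was lower without overlap in 7 minor arms (3.89%) and in 13 major arms (5.68%). The median log2 difference was 0.08 for minor and -0.05 for major arms. Minor arms were also less abundant, with a median of 156 normalized reads against 1349, and the AA libraries were the deeper ones. Because arms were classed by number and letter, forms of the same strand under different names can fall in both classes. miR-146a-5p, a longer form of the abundant major-arm sequence miR-146, counted as minor. miR-146a-3p, with 18.9 ± 7.92 normalized reads in AA and 36.2 ± 10.2 in IGF1, counted as major. Such entries are also among the 180 pairs below. The part of these entries, of abundance and of depth in this contrast was not tested.

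The ratio of minor to major arm within a library is unchanged when all values of the library are multiplied by 1 factor. Quantile normalization, and for low entries the 1 added before taking log2, can change the ratio. This ratio was tested in 180 pairs, and 2 ratios passed, both higher in AA (1.11%), while none was lower (0%). Unadjusted p-values were under 0.05 in 21 pairs (11.7%), 19 higher and 2 lower, and 62.2% of ratios had a value above 0. miR-181b-3p amounted to 2.87%, 2.91% and 2.49% of miR-181b in AA and to 1.01%, 0.969% and 1.04% in IGF1. The log2 ratio differed by 1.44 (SE 0.16, limma adjusted p = 0.00335). mir-128-2-p5 amounted to 1.57%, 1.47% and 1.43% of miR-128-3p in AA and to 0.432%, 0.325% and 0.589% in IGF1, a difference of 1.75 (SE 0.25, adjusted p = 0.0114). In both pairs the AA and IGF1 libraries were well apart. The miR-181b sequence is also named miR-181d, and both miR-128 hairpins share miR-128-3p. These major arms can thus come from more than 1 hairpin, and the ratios need not compare strands of the same hairpin. Without AA replicate 2 no ratio passed, with adjusted p = 0.0541 for miR-181b-3p and 0.0978 for mir-128-2-p5. The next pairs, chosen after their values were seen, were mir-365-p5 against miR-365, with 1.47% ± 0.115 in AA and 0.850% ± 0.0429 in IGF1 (adjusted p = 0.081), and miR-145-3p against miR-145, with 34.1% ± 6.14 and 14.8% ± 4.69 (adjusted p = 0.081). In the muscle miRNAs the ratio differed by 0.66 for miR-206-5p (adjusted p = 0.187), 0.82 for miR-133a-2-5p (0.311), 0.81 for miR-133b-5p (0.69), 0.32 for miR-499b-3p (0.74) and 0.15 for miR-1-5p (0.881), none of which passed.

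**Figure D4:**
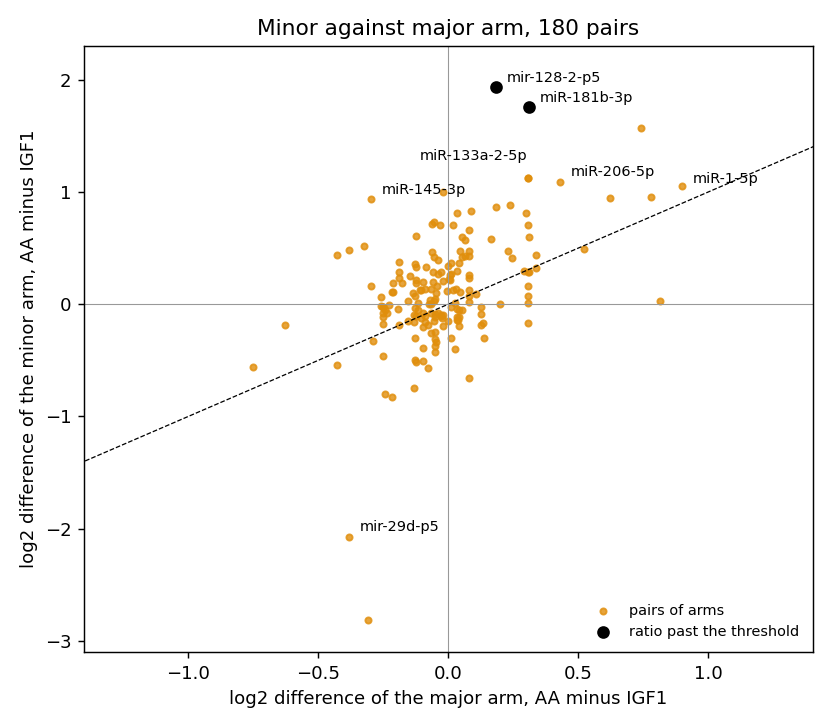
Log2 difference between AA and IGF1 of the minor arm against that of its major arm, for 180 pairs. The dashed line marks equal differences and black points the ratios past the threshold. mir-128-2-p5 and miR-181b-3p lie well above the line, while miR-1-5p lies close to it.

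Only miR-10926 was lower in AA past the threshold. It had 215, 156 and 174 normalized reads in AA and 392, 358 and 449 in IGF1, with CTR at 344 ± 115. The highest AA library was well under the lowest IGF1 library, and the difference was -1.14 (SE 0.18, adjusted p = 0.0272). Next to it stood entries of the same kind, whose sequences are given because they share their length and 3′ end. The capitals again mark bases 2 to 8, and G9A names the base that differs at position 9 from the 5′ end.
miR-10926 (G9A): aTCCCAGCagtgcctcca
miR-10955: tCCCCGTAcgggccacca
miR-7550: aTCCGGCTcgaaggacca

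The G9A variant of miR-10926 had 55.6, 36.6 and 55.9 normalized reads in AA and 100.04, 86.7 and 108 in IGF1, a difference of -0.997 (SE 0.23, adjusted p = 0.0949). miR-10955 had 2017, 1487 and 2231 in AA against 4985, 3228 and 3907 in IGF1, a difference of -1.08 (SE 0.21, adjusted p = 0.0728). Neither passed, although the groups did not overlap. The CTR libraries of miR-10955 ranged from 2394 to 7083. All of these entries are 18 nt long and end in CCA, the letters that are added to the 3′ end of every mature transfer RNA. In all, 4 of 6 tested sequences of 18 nt ended in CCA, against 22 of 547 tested sequences of any length (4.02%). The fourth, miR-7550, was named for this feature after its values were seen and pointed the other way, with a difference of 0.41 (SE 0.21, adjusted p = 0.522). Of the 22 sequences that end in CCA, 11 had values above 0 and 11 below. Whether any of them comes from transfer RNA was not tested.

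Among the other entries with groups that did not overlap and an unadjusted p under 0.05, 2 minor arms of miR-29 were lower in AA. miR-29 is a regulator of collagen and other matrix genes. mir-29d-p5 had 6.95, 18.3 and 24.9 normalized reads in AA and 58.8, 54.4 and 88.1 in IGF1, a difference of -2.07 (SE 0.46, adjusted p = 0.0859). mir-29a-1-p5 had 41.7, 44.1 and 44.3 in AA and 72.0, 81.0 and 76.5 in IGF1, a difference of -0.80 (SE 0.18, adjusted p = 0.0859). For both, CTR libraries were above all AA libraries. Of 12 tested miR-29 sequences 11 had values below 0, with a median of -0.20, and none passed. The value of miR-29b-3-5p, -2.45 (adjusted p = 0.385), rested on 3.35 ± 5.80 and 11.2 ± 1.94 normalized reads.

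Further entries lower in AA by the same rule were miR-8160b, with 33.7 ± 2.38 normalized reads in AA and 59.3 ± 3.14 in IGF1 (-0.80, adjusted p = 0.105), and miR-551, with 402 ± 9.98 and 549 ± 13.3 (-0.45, adjusted p = 0.172). Within the miR-30 family, miR-30e-3p was at -0.63 (adjusted p = 0.139) and miR-30a-4-3p at -0.57 (adjusted p = 0.309). miR-130c-5p was at -0.47 (adjusted p = 0.309). An epithelial miRNA, miR-203a, was at -0.57, with 128 ± 35.0 normalized reads in AA, 188 ± 27.7 in IGF1 and 333 ± 56.5 in CTR (adjusted p = 0.376). One candidate, PC-3p-5031, had 43.6 ± 9.98 normalized reads in AA and 69.4 ± 9.38 in IGF1 (-0.68, adjusted p = 0.344). In each of these entries every AA library was below every IGF1 library, and none passed the test. For miR-203a the highest AA library, at 166.2, and the lowest IGF1 library, at 166.7, were all but level.

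On the higher side, the miR-216 and miR-217 cluster, known from pancreas, had values above 0 in 7 of 7 tested sequences, with a median of 0.41, under each scaling and with any library left out. mir-216a-p3 had 542, 675 and 719 normalized reads in AA against 285, 373 and 389.7 in IGF1, a difference of 0.89 (SE 0.18, adjusted p = 0.0829). mir-216b-p3 had 389 ± 86.4 and 218 ± 18.5, a difference of 0.81 (SE 0.20, adjusted p = 0.105). The CTR means, 433 and 256, lay between those of AA and IGF1. miR-301b-5p, at 405 ± 63.7 in AA and 229 ± 21.3 in IGF1, differed by 0.81 (SE 0.17, adjusted p = 0.0829). Its CTR libraries, at 338 ± 38.2, lay above the IGF1 libraries and overlapped AA. mir-365-p5, the passenger strand of miR-365, had 281 ± 44.0 and 159 ± 16.5 normalized reads and also differed by 0.81 (SE 0.17, adjusted p = 0.0829). Both entries of miR-7133, listed as the arms of 1 hairpin, were higher in every AA library, with 605 ± 41.3 in AA against 426 ± 85.8 in IGF1 for miR-7133 (0.52, adjusted p = 0.309) and 602 ± 69.5 against 429 ± 69.3 for miR-7133-3p (0.49, adjusted p = 0.326). None of these passed.

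The other families held no call. Values below 0 prevailed in miR-30, with 11 of 13 tested sequences and a median of -0.18, and in miR-23, miR-24 and miR-27, with 29 of 36 and -0.14. In the second group mir-24a-4-p5 was at -0.75, on 17.3 ± 4.24 normalized reads in AA and 29.8 ± 7.16 in IGF1. There miR-27c-5p was at -0.82, on 11.05 ± 2.89 and 20.3 ± 4.82. The same held for miR-10, the miRNAs of the Hox clusters, with 7 of 8 and -0.10 (miR-10a-5p at -0.26), and for miR-25, miR-92 and miR-363, with 8 of 10 and -0.13 (miR-363-3p at -1.22, on 21.5 ± 13.3 and 84.6 ± 110 normalized reads). In miR-22 5 of 6 were below 0, with a median of -0.15 (miR-22c at -0.18). These lists kept medians below 0 under each scaling and with any library left out. Of all tested sequences, 275 of 547 were below 0.

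Values above 0 were more frequent in let-7, a family that rises as cells differentiate, with 25 of 34 and a median of 0.07. The let-7 minor arms made up most of this, with 15 of 18 above 0 and a median of 0.25 (let-7a-3p at 0.66, adjusted p = 0.267). let-7a-3p had 174 ± 30.9 normalized reads in AA, 110 ± 17.5 in IGF1 and 172 ± 56.0 in CTR. The median of all let-7 sequences was -0.03 without IGF1 replicate 1. In miR-125 the minor arms had 5 of 6 above 0 and the major arms 0 of 4. miR-125b-2-3p, with 301 ± 27.6 normalized reads in AA and 197 ± 10.2 in IGF1, was at 0.60 (adjusted p = 0.102). miR-221 and miR-222, which favour proliferation of myoblasts in mice, had 9 of 9 above 0 with a median of 0.10 (mir-221-2-p5 at 0.47). Of these, 8 stayed above 0 when libraries were rescaled to the same total or quantile normalized, and 5 without AA replicate 3.

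The remaining lists were mixed. miR-15 and miR-16 had 3 of 10 above 0 (a longer form of miR-16b at 0.61). In the miR-17 group with miR-20, miR-93 and miR-106 it was 8 of 13 (mir-106-p3 at 0.47). For miR-18 and miR-19 it was 6 of 14 (miR-19d-5p at 1.00), and for miR-26 4 of 11 (miR-26d at 0.55). miR-34 had 1 of 4 above 0, mir-34c-p3 at 0.52, on 22.9 ± 4.33 and 16.8 ± 8.69 normalized reads. The miR-34 median was -0.31, with the 2 major arms at -0.33 and -0.29. In 1 of these the groups did not overlap, against 33 of 547 tested sequences lower without overlap (6.03%). miR-99 and miR-100 had 5 of 8 above 0 (miR-99 at 0.19), miR-130, miR-301 and miR-454 6 of 16 (miR-301a-5p at 0.73), miR-103 and miR-107 4 of 5 (miR-107a-5p at 0.70) and miR-338 2 of 5 (miR-338a-3-5p at 0.33). miR-148 and miR-152 had 2 of 8 above 0 (a variant of miR-152 at -0.49). For miR-132 and miR-212 it was 3 of 6 (miR-212a-3p at -0.14). In miR-33, which lies in genes of lipid metabolism in mammals, 3 of 4 were above 0 (miR-33a-3p at 0.34). miR-210, the miRNA of hypoxia, also had 3 of 4 above 0. Of these, 2 were miR-210-3p forms of 25 nt with equal values in every library. Each was at 1.02, on 39.6 ± 18.5 normalized reads in AA and 19.8 ± 11.4 in IGF1. The most abundant miR-210 entry was at -0.05. The example given for each list is 1 of its largest absolute differences, and none of these passed. Several examples had few reads for their list. In AA and IGF1, mean normalized reads were 23.7 and 16.5 for the miR-16b form and 14.1 and 24.9 for the miR-152 variant. They were 13.9 and 9.36 for miR-107a-5p, 23.1 and 15.96 for miR-26d, and 140 and 122 for the miR-99 variant. The entries taken as major arms of miR-16b, miR-152 and miR-99 in the arm ratios were at -0.05, -0.02 and -0.08.

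None of the 10 most abundant entries passed the test. miR-21, a growth-related miRNA, held 31.1% ± 0.978 of normalized reads in AA and 30.8% ± 2.58 in IGF1, with a log2 difference of 0.05 (95% interval from -0.17 to 0.28). miR-146, an immune regulator, held 17.5% ± 0.962 and 17.2% ± 3.54, with a difference of 0.08 (interval from -0.32 to 0.47). miR-22b held 7.35% ± 0.454 and 8.37% ± 0.173 (-0.15), and miR-206 7.30% ± 0.621 and 5.57% ± 0.650. The shares of miR-22b and miR-206 did not overlap between the groups, with miR-22b lower and miR-206 higher in AA. In normalized reads, where 15.5% of tested entries did not overlap, the groups of miR-22b did overlap. There it had 710575 in AA replicate 3 and 701820 in IGF1 replicate 3 (limma adjusted p = 0.657). The next in order were miR-199-5p (-0.23), miR-92a (-0.23), miR-26a (-0.10), miR-126-3p (0.03), the shared miR-133a/b sequence (0.31) and miR-27c (-0.22). Other entries of the miR-21 list were noisier, with mir-21-1-p3 at 0.60 and miR-21b-3p at 0.42 (SE 0.84). miR-146a-3p was at -0.94, on 18.9 ± 7.92 and 36.2 ± 10.2 normalized reads, and miR-31 at -0.06.

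miRNAs that mark other cell types were read beside these results. Fibroblast and smooth muscle miRNAs (miR-143, miR-145, miR-199, miR-214 and miR-140) held between 3.84% and 3.98% of normalized reads in AA and between 4.12% and 4.73% in IGF1. CTR libraries held between 4.09% and 4.62%. The AA and IGF1 shares did not overlap and lay opposite to the muscle miRNAs. This was not particular to the list, as miR-22 held between 7.71% and 8.65% in AA and between 8.98% and 9.33% in IGF1. The entry miR-199-5p alone held 1.64% ± 0.133 in AA and 1.98% ± 0.257 in IGF1. Of their 15 tested sequences 5 were above 0, and the median was -0.08. The only call among the 15, miR-145-3p, was higher in AA. Groups did not overlap with AA lower in 1 of the 15, against 33 of all 547 tested sequences (6.03%). miR-126, of endothelium, held between 1.14% and 1.23% in AA and between 1.15% and 1.25% in IGF1. Blood cell miRNAs held between 0.102% and 0.120% in AA and between 0.106% and 0.137% in IGF1 (miR-223 at -0.21, miR-731-3p at 0.27). Neural, liver and gut, and epithelial miRNAs were at most 0.0162% of normalized reads in any of the 6 libraries. Their largest differences rested on few reads and were not shared by close variants. miR-129-3p was at -0.54, on 28.1 ± 4.41 normalized reads in AA and 46.4 ± 29.7 in IGF1, and the similar miR-129-3-3p at 0.44. mir-194b-p3 was at -0.50, on 8.91 ± 0.524 and 13.2 ± 3.03, and its longer form at 0.36. miR-429b was at 1.06 (SE 1.07), on 12.4 ± 4.09 and 10.1 ± 9.87. The part of the fibroblast share in the difference of the muscle miRNAs was not tested.

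**Figure D5:**
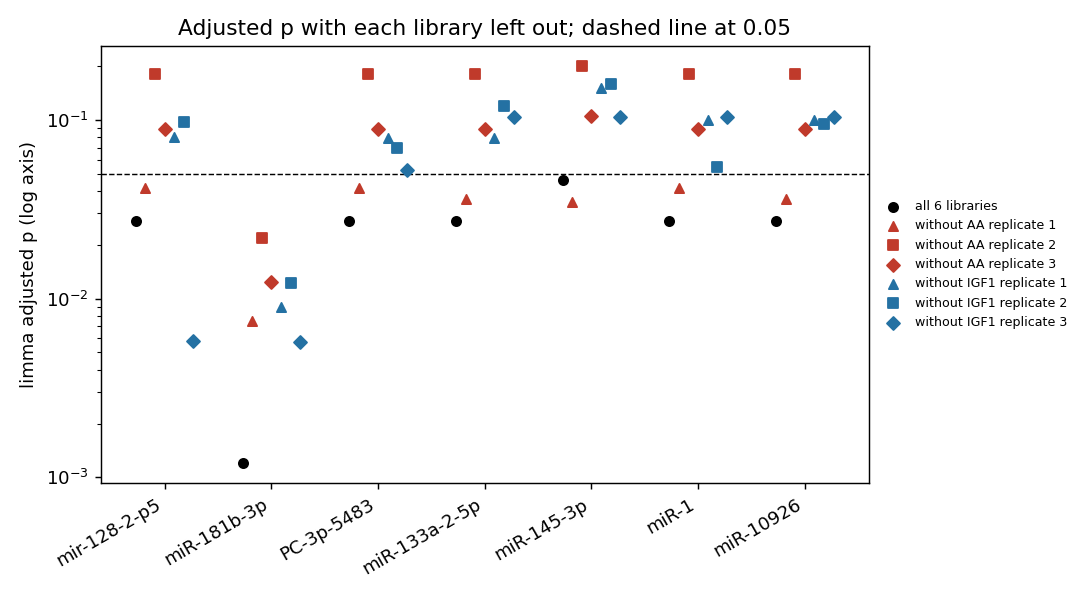
Limma adjusted p (log axis) of each of the 7 entries past the threshold, with all 6 libraries and with each library left out, and the threshold of 0.05 as a dashed line. miR-181b-3p stays under the line throughout. With a library left out, the other 6 entries lie under it only without AA replicate 1, and mir-128-2-p5 also without IGF1 replicate 3.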

How the data were processed

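Small RNA was sequenced as single-end reads. Per the study's methods, the authors trimmed reads with scripts of their own, kept unique sequences of 18 to 26 nt and assigned them by BLAST to miRBase. The deposited values are normalized reads, a signal for each entry in each library. For the normalization formula and the genome build, the sources used here name none. The deposited table also holds the authors' group means and their p-value over the 3 groups, which were not used. Names that share a sequence (30 sequences) carried the same values and were counted once in lists.

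An entry was tested if 3 or more of the 6 libraries reached 10 normalized reads, as log2(normalized reads + 1), so that differences of low entries are understated. A linear model was fitted in limma 3.58.1 (R 4.3.3) on the 3 AA and 3 IGF1 libraries and moderated by empirical Bayes with a trend on intensity. P-values were two-sided, Benjamini-Hochberg adjusted over all tested entries (over 180 pairs for arm ratios), with a threshold of 0.05. Fold differences are on the log2(normalized reads + 1) scale. Tables were joined using pandas 2.3.3 (Python 3.11.15). The test was checked on simulated data. Depth was inferred from the step between low values, of which 79.3% to 83.1% per library were whole multiples, so that count models were not run.

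Members and lists were chosen with earlier results of these data known. Named are the calls, the 10 highest and 10 lowest other entries with an unadjusted p under 0.05, groups that do not overlap and at least 50 normalized reads in the higher group, candidates by the same rule, the 10 most abundant entries, both arms of muscle miRNAs and of calls, and examples per list by the largest absolute difference. An entry whose name gives no arm took that of labelled entries with overlapping sequence, or else the arm opposite to the labelled entry of the same hairpin name, a rule refined after the data were seen. Alternatives were the fit with all 9 libraries, a replicate block, other pseudocounts, filters and scalings, no intensity trend, weights per library, 1 entry per sequence and each library left out.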

Additional observations from a re-analysis of the deposited data

How the results depend on the processing

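Calls numbered 7 in the comparison as reported, and between 5 and 7 with all 9 libraries in the fit, pseudocounts of 0.1 or 10, no filter, rescaling to the same total, TMM scaling or 1 entry per sequence. There were 12 with at least 100 normalized reads as the filter, 15 with weights per library, 4 after quantile normalization (3 higher and 1 lower, against 6 and 1) and 1, miR-181b-3p, without the intensity trend. miR-10926 and PC-3p-5483 were not among the 5 calls with all 9 libraries. Leaving out 1 library gave between 1 and 9 calls for entries and between 0 and 3 for arm ratios. Entries without overlap numbered 56 of 341 under the filter at 100. With the replicate number as a block, 15 entries and 11 arm ratios passed, all 7 calls among the entries. Deviations of libraries with the same number correlated between 0.0754 and 0.372, not all over 0.1, and 5 of 6 libraries correlated best with their own number, which is a hint from the data and not from the design. The cause of these changes was not tested, except that the filter at 100 adjusts over fewer entries.

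Signs turned only in entries that did not pass. Rescaling to the same total and TMM scaling gave -0.0085 and -0.00116 for miR-126-3p and -0.017 and -0.0095 for miR-128. With 1 library left out, log2 differences ran from -0.12 to 0.17 for miR-128, -0.014 to 0.054 for miR-126-3p, -0.0054 to 0.10 for miR-21, -0.12 to 0.23 for miR-146, -0.44 to 0.049 for miR-27c, -0.17 to 0.0066 for miR-31, -0.28 to 1.24 for miR-21b-3p, -0.25 to 1.93 for miR-429b, -0.48 to 0.17 for miR-212a-3p, -1.23 to 0.13 for the longest miR-128-3p variant and -0.21 to 0.49 for the shifted miR-145-3p variant. Further list examples ran from -1.17 to 0.10 for let-7a-6-p3, -1.04 to 0.12 and -0.46 to 0.031 for 2 variants of miR-152, -1.64 to 0.37 for a variant of miR-125b-5p, -0.85 to 0.16 for miR-126b-5p, -0.0081 to 0.19 for miR-132-5p, -0.0058 to 0.15 for miR-126a-3p and -0.046 to 0.36 for miR-100-2-3p.

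Depth limits entries near the filter, where 3 reads are between 2.32 and 3.48 normalized reads.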

Other observations

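Some entries were high in 1 library only, and were chosen after their values were seen. miR-204a, a miRNA of retinal pigment epithelium and other tissues, had 728, 681 and 1685 normalized reads in AA and 704 and 1179 in IGF1 replicates 1 and 2, but 11577 in IGF1 replicate 3. CTR libraries held between 194 and 1018. The log2 difference between AA and IGF1 was -1.17 (SE 0.96, limma adjusted p = 0.716). A variant of miR-10926 with G9T, counted from the 5′ end, had 263 normalized reads in CTR replicate 1, 11.5 in CTR replicate 2 and 0 in CTR replicate 3, and at most 9.28 in the AA and IGF1 libraries. The source of these single high values was not tested.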
